A study of Homo sapiens with 2 samples.

Results

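The galectins are a family of small lectins that bind beta-galactoside sugars on glycoproteins and glycolipids. The members were LGALS1, LGALS2, LGALS3, LGALS4, LGALS8, LGALS9, LGALS12, LGALS13 and LGALS14, together with LGALS3BP, a secreted glycoprotein that is bound by galectins but is not one itself. They were found as the probe sets whose platform annotation names only that gene, which gave 16 probe sets for 10 of the 19775 genes measured. The samples were 2 cultures of the established human liver cancer line Huh7 (hepatocellular carcinoma), each transduced stably with a lentivirus. One carried a short hairpin RNA (shRNA) against CD24, a heavily glycosylated small protein held at the cell surface by a lipid anchor, while its counterpart carried a non-target hairpin as the control (NTC). Each culture gave total RNA for a single Affymetrix array (1 array per group), and whether the transduced cells were a pool or a clone is not given in the sources used here.

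Galectins are made without a signal peptide, and act both inside the cell and, after an unconventional export, on the cell surface and matrix, where they crosslink sugar chains that end in galactose. Prototype galectins have a single carbohydrate-recognition domain (LGALS1, LGALS2, LGALS13 and LGALS14 here), the chimera type LGALS3 joins its domain to a self-associating tail, and tandem-repeat galectins (LGALS4, LGALS8, LGALS9 and LGALS12) hold a pair of domains in a single chain. How well a galectin binds depends on the branching of N-glycans and on the sialic acid that caps them.

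The upstream sequences of the galectin genes on chromosome 19 are shown because LGALS14, which had the largest difference of the family, is a neighbour of its relatives LGALS13 and CLC (the galectin of eosinophils, also named galectin-10), which did not share that difference. The sequence upstream of LGALS3BP is shown because that gene had the second-lowest value of the family. Each is the 250 bases before the start listed by RefSeq (build GRCh38.p14), 5′ to 3′ on the strand of the gene. Capitals mark the letters ATTTAAAT in the sequences upstream of LGALS14 and LGALS13, and a match to GAAA, any 2 bases and GAAA, the core of interferon-response elements, upstream of LGALS3BP.
LGALS14 (chr19:39704231-39704480, plus strand): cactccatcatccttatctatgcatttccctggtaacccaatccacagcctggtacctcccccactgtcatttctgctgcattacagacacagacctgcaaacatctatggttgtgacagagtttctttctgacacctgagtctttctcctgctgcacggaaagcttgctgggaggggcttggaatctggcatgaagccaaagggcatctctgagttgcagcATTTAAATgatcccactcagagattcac
LGALS13 (chr19:39602274-39602523, plus strand): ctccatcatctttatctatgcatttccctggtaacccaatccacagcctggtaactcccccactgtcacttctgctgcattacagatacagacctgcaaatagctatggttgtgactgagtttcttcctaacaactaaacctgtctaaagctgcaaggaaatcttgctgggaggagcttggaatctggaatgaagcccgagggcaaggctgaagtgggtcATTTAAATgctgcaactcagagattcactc
CLC (chr19:39738030-39738279, minus strand): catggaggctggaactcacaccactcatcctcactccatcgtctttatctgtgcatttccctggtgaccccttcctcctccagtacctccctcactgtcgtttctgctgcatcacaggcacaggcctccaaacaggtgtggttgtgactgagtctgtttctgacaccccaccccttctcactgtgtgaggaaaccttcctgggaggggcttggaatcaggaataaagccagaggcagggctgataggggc
LGALS3BP (chr17:78979924-78980173, minus strand): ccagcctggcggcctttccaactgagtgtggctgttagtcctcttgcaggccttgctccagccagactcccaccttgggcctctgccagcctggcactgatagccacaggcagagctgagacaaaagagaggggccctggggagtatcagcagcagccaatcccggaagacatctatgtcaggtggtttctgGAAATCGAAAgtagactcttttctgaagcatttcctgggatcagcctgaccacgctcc

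The deposited table held log2 values that sum to 0 over the pair of arrays for each probe set, so a value on one array is the negative of that on the other, and levels could not be compared between genes. With 1 array per group there was no replicate check and no test, and precision is limited by that number. Genes with several probe sets are given with the SD over them, which leaves out the spread between cultures. Pooled over the 10523 genes with at least 2 probe sets, this SD was 0.27 on the log2 scale. In a bulk sample, fewer cells that express a gene and less RNA per cell cannot be told apart.

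The knockdown was checked first. CD24 had a centred log2 value of -0.68 in CD24 shRNA cells, against 0.68 in NTC cells, as the mean over 6 probe sets. The log2 difference, CD24 shRNA minus NTC, was -1.37 ± 0.38 (SD over 6 probe sets), and each of the 6 lay below 0. All 6 have names ending in _s_at or _x_at, given to probe sets that may also detect other transcripts. Over the whole array 125 genes (0.632%) were at least 2-fold higher in CD24 shRNA cells and 96 (0.485%) at least 2-fold lower. Scaling on the spiked-in hybridisation control probe sets, which adds 0.078 to each difference, changed this split to 165 higher and 78 lower.

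In the galectin family 1 of 10 genes, LGALS14, was at least 2-fold lower in CD24 shRNA cells and 0 were at least 2-fold higher, against 0.485% and 0.632% of all genes. LGALS8 was the only member at least 1.5-fold higher, a size reached upward by 2.63% of all genes, and with LGALS14 it made 2 of 10 members past 1.5-fold in either direction, against 5.01% of all genes. Of the 10 members 4 lay above 0 and 6 below, with a median log2 difference of -0.18, against 0 over all genes. The median size of the difference without its sign was 0.23 in the family and 0.14 over all genes. Of the members, 8 were measured by 1 probe set each, against 9252 of all 19775 genes. Of the family probe sets 12.5% lay below 4 in the dimmer array, against 25.4% over all genes. The median sizes are therefore not directly comparable.

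**Figure D1:**
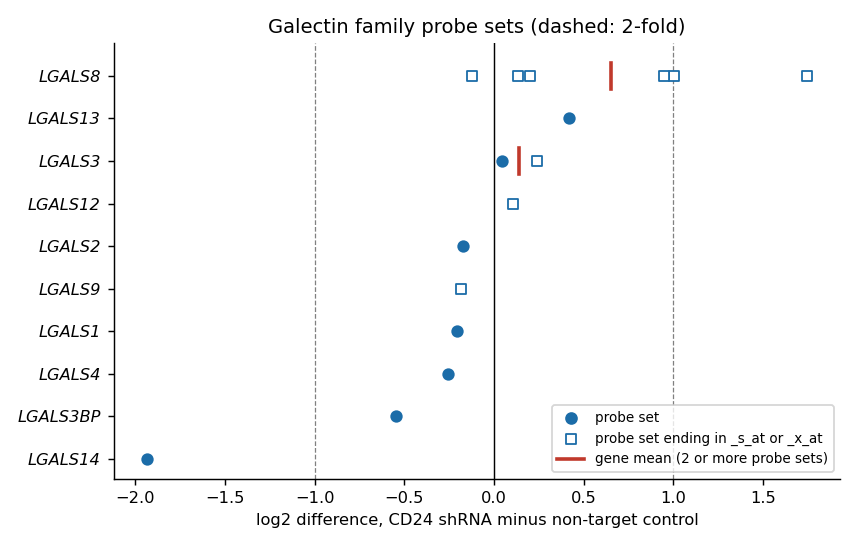
Log2 difference (CD24 shRNA minus non-target control, x axis) of each of the 16 galectin family probe sets, by gene. Filled circles and open squares are probe sets, open squares those with names ending in _s_at or _x_at, and red bars are the means of the genes with several probe sets; LGALS14 lies alone at -1.94, and the 6 LGALS8 probe sets run from -0.12 to 1.75.

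LGALS14 encodes a galectin known mainly from the placenta. Its centred log2 value was -0.97 in CD24 shRNA cells, against 0.97 in NTC cells, on 1 probe set. The log2 difference of -1.94 is 3.83-fold lower in CD24 shRNA cells. It was the 7th lowest of the 19775 genes and the 30th by size in either direction. For comparison, the CD24 probe sets had differences from -1.97 to -0.95. Because the deposited values are single-precision numbers, their last binary digits bound the level of some probe sets, but they set no bound for LGALS14. No other probe set had a difference of the same size, within 1e-06, whereas 103 of 107 olfactory receptor probe sets, which are expected to be silent in these cells, shared their size with at least 1 other. Shared sizes were rare among large differences in general, with 6.64% of the probe sets of 2-fold or more.

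LGALS13, which encodes placental protein 13, went the other way. Its centred value was 0.21 in CD24 shRNA cells, against -0.21 in NTC cells, and its log2 difference was 0.42 on 1 probe set, or 1.34-fold higher. The value in the dimmer array lay below 8 on the log2 scale, and 48 other probe sets had a difference of the same size. The median number of such others was 26 for the olfactory receptor probe sets and 4 for all probe sets that name 1 gene. Whether LGALS13 was expressed in these cells was not tested. LGALS13 and LGALS14, close relatives in sequence and in tissue, thus had differences of opposite sign, which with 1 probe set each and 1 array per group has no replicate check.

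The genes that lie beside LGALS14 on chromosome 19 did not share its difference. Among the nearest 5 genes with a value on each side, 6 lay above 0 and 4 below, and they ran from -0.52 to 0.43. CLC, the next gene with a value on one side, had a log2 difference of 0.32, with the dimmer array below 4. The uncharacterised LOC100129935, the next on the other side, lay at 0.30. The lowest neighbour was FBL, the nucleolar methyltransferase fibrillarin, at -0.52, followed by FCGBP, a mucin-like IgG-binding protein, at -0.37. EID2, a transcriptional corepressor, was the highest at 0.43, just above LGALS13. The kinase gene DYRK1B lay at 0.24 ± 0.09 (SD over 2 probe sets), the Notch ligand gene DLL3 at 0.09 ± 0.18 (SD over 4 probe sets), EID2B at -0.11 and the proteasome subunit gene PSMC4 at -0.02. Around LGALS1 on chromosome 22, the 10 neighbours ran from -0.17 to 0.20, with LGALS2 the lowest and TRIOBP, an actin-binding protein, the highest.

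**Figure D2:**
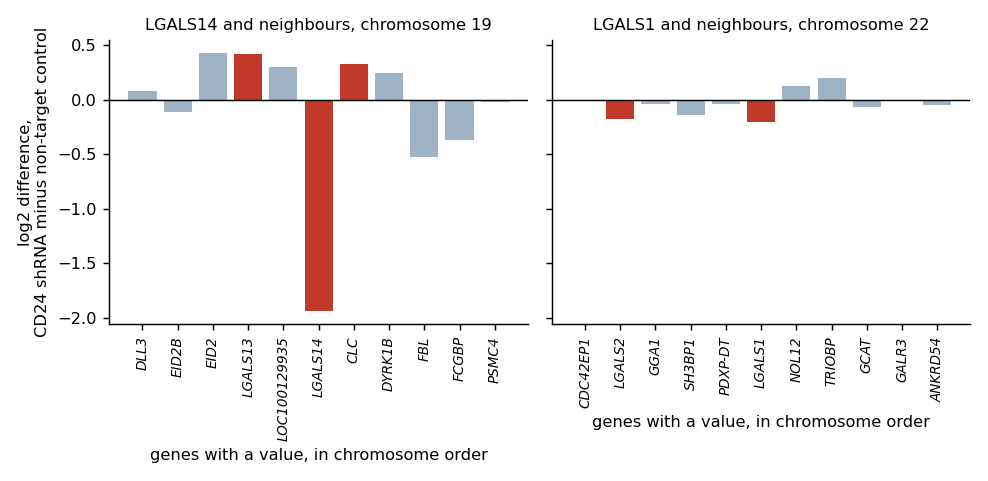
Log2 difference (CD24 shRNA minus non-target control, y axis) of LGALS14 (left) and LGALS1 (right) with the nearest 5 genes with a value on each side, in chromosome order; galectin genes are red. LGALS14 lies at -1.94 and its neighbours between -0.52 and 0.43.

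Over the 250 bases printed above, LGALS14 and LGALS13 were identical at 84.9% of aligned positions. LGALS14 and CLC were identical at 63.8%, and LGALS13 and CLC at 60.6%. LGALS16, a relative that has no probe set of its own here, was 85.7% identical to LGALS14 and 87% to LGALS13. LGALS3BP was 50.3% identical to LGALS14. The median over the 105 pairs of galectin upstream sequences was 48.5%. The letters ATTTAAAT, which read the same on both strands and were chosen after the sequences were seen, began 28 bases before the LGALS14 start and 30 bases before the LGALS13 start. They occurred in 0.769% of 35114 upstream sequences of the same length, and were in neither the CLC nor the LGALS16 window. The printed LGALS14, LGALS13 and CLC sequences were poor in CG dinucleotides, with 1, 1 and 2 in turn, against a median of 11 over all 35114 upstream sequences. LGALS16, LGALS9, LGALS9B and LGALS9C also had 1 each. Of the other letters searched on both strands, TATAAA was in 10.7% of all upstream sequences and, in this family, in 1 of the LGALS8 sequences. GGGCGG, the core letters of GC boxes, was in 42.6% of all and in those of LGALS8, LGALSL, LGALS3, LGALS7 and LGALS7B, and TTCNNNGAA, the letters STAT factors read, in 6.57% of all and in 0 of the 17 of this family. These matches are descriptions of sequence and not measured sites.

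LGALS8 had the highest mean of the family. It encodes a tandem-repeat galectin that binds integrins at the surface and marks damaged vesicles inside the cell. Its mean centred value was 0.33 in CD24 shRNA cells, against -0.33 in NTC cells, and the log2 difference was 0.65 ± 0.70 (SD over 6 probe sets), or 1.57-fold higher. An SD above the mean shows that the probe sets disagreed.

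The probe sets of LGALS8 fell into a higher and a lower trio. Probe set 210732_s_at had centred values of 0.87 in CD24 shRNA cells and -0.87 in NTC cells, a log2 difference of 1.75, which 0.204% of probe sets naming 1 gene reached. Probe set 208934_s_at had 0.50 in CD24 shRNA cells and -0.50 in NTC cells, a difference of 1.01, and 208936_x_at had 0.47 in CD24 shRNA cells and -0.47 in NTC cells, a difference of 0.95. These 3 lay at about 2-fold higher or more, 2 of them past that threshold. The other 3 were near 0: 208935_s_at had a difference of 0.20, 208933_s_at of 0.14 and 210731_s_at of -0.12. Without its highest probe set the LGALS8 mean was 0.43, or 1.35-fold, which no longer reached 1.5-fold.

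Among the 326 genes with 6 probe sets, LGALS8 had the largest SD over probe sets, 0.70 against a median of 0.23 and a 95th percentile of 0.46. CD24, with as many probe sets, had an SD of 0.38. This rank was looked up after the LGALS8 values were seen. Every LGALS8 probe set, like every CD24 probe set, carries the suffix _s_at or _x_at, given to probe sets that may also detect other transcripts. The digits placed the mean over the arrays at 4 or more for 210732_s_at, 208934_s_at and 208935_s_at, and the dimmer array below 8 for 5 of the 6. RefSeq lists 3 starts for LGALS8, and the 250 bases upstream of them had a G+C content of 29.2%, 63.2% and 68%. Which transcripts the probe sets read was not tested. LGALS8-AS1, an antisense RNA gene at the same locus, had a difference of 0.16 on 1 probe set.

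**Figure D3:**
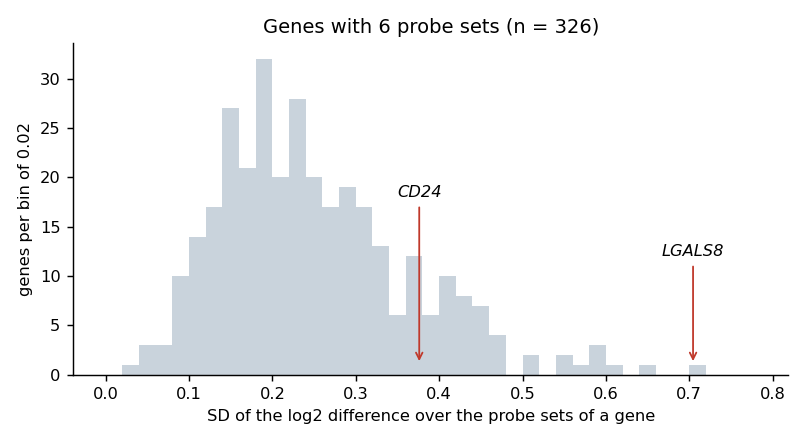
Number of genes (y axis) by the SD of their log2 difference over probe sets (x axis), for the 326 genes with 6 probe sets. LGALS8, at 0.70, is the rightmost, and CD24 lies at 0.38.

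LGALS3BP, which many epithelia and the liver secrete and which binds galectins and matrix proteins, was the second lowest. Its centred value was -0.27 in CD24 shRNA cells, against 0.27 in NTC cells, and the log2 difference was -0.55 on 1 probe set, or 1.46-fold lower. It fell short of 1.5-fold, a size reached downward by 2.38% of all genes, and it was larger in size than 94.2% of genes. The dimmer array lay below 8, and 4 other probe sets had a difference of the same size. The interferon-response core in the sequence above reads GAAATCGAAA and begins 58 bases before the start. Such a match, on either strand, was in 3.02% of all upstream sequences and in no other galectin sequence searched.

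LGALS3, the main galectin partner of LGALS3BP, had centred values of 0.12 in CD24 shRNA cells and -0.12 in NTC cells on 208949_s_at, and of 0.02 in CD24 shRNA cells and -0.02 in NTC cells on 1557197_a_at. The mean log2 difference was 0.14 ± 0.14 (SD over 2 probe sets), or 1.10-fold higher. The second probe set lay below 4 in the dimmer array and shared the size of its difference with 88 others. LGALS3 and LGALS3BP therefore lay on opposite sides of 0, with LGALS3 closer to 0 than the pooled SD over probe sets.

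The remaining prototype galectins were slightly lower. LGALS1, which crosslinks surface glycoproteins and is widely expressed in mesenchymal cells, had centred values of -0.10 in CD24 shRNA cells and 0.10 in NTC cells, a log2 difference of -0.21. For LGALS1, 15 other probe sets had a difference of the same size. LGALS2, a galectin of the gut, had -0.09 in CD24 shRNA cells and 0.09 in NTC cells, a difference of -0.17. Both differences, on 1 probe set each, were smaller than the pooled SD of 0.27, and over all genes 65.1% had a size below that of LGALS1.

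The remaining tandem-repeat galectins also had small differences. LGALS4, a galectin of intestinal epithelium tied to lipid rafts, had -0.13 in CD24 shRNA cells and 0.13 in NTC cells, a difference of -0.26, with the dimmer array below 8. The size of this difference was shared by 5 other probe sets. LGALS9, a ligand of the immune receptor TIM-3, had -0.09 in CD24 shRNA cells and 0.09 in NTC cells, a difference of -0.18. That size was shared by 21 other probe sets. The LGALS9 value is uncertain, because its probe set has a name ending in _s_at and the genome holds the near copies LGALS9B and LGALS9C. Their upstream sequences are 91.4% and 88.5% identical to that of LGALS9, which does not show whether the probe set reads their transcripts. LGALS12, known from lipid droplets of fat cells, had 0.05 in CD24 shRNA cells and -0.05 in NTC cells, a difference of 0.10. Its dimmer array lay below 4, and 389 other probe sets had a difference of the same size.

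Galectin genes outside the 10 were few. LGALSL, a galectin-related protein without lectin activity, had a difference of -0.10 ± 0.20 (SD over 2 probe sets). With CLC this made 2 of 8 further galectin genes with a value, with a median of 0.11. LGALS7 and LGALS7B, near-identical genes of stratified epithelium, share a probe set that names both, and it had -0.21 in CD24 shRNA cells and 0.21 in NTC cells, a difference of -0.43, with the dimmer array below 4.

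**Figure D4:**
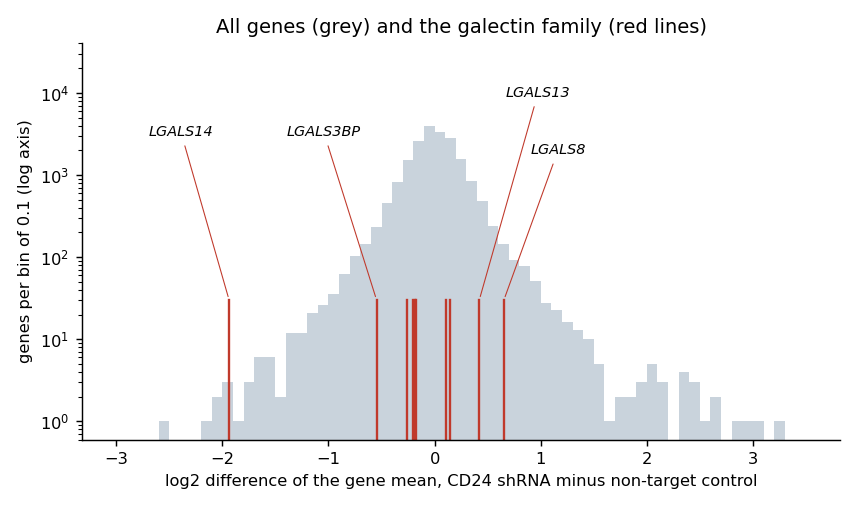
Number of genes (y axis, log scale) by log2 difference (CD24 shRNA minus non-target control, x axis) for all 19775 genes, with the 10 galectin family genes as red lines. LGALS14 lies at -1.94 in the far lower tail, LGALS3BP at -0.55, LGALS13 at 0.42 and LGALS8 at 0.65.

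The glycoproteins that galectins bind were described next, as a list of 28 surface and matrix proteins. Of these 17 lay above 0 and 11 below, with a median of 0.10, against 49.4% above 0 and a median of 0 over all genes. Of the 28, 0 reached 2-fold, against 1.12% of all genes in either direction. CEACAM1, a cell adhesion molecule of hepatocytes, was 1.73-fold lower in CD24 shRNA cells (-0.79 ± 0.37, SD over 5 probe sets), with all 5 probe sets below 0. ITGAV, the integrin alpha V chain, was 1.68-fold higher (0.75, 1 probe set) and SLC3A2, the CD98 heavy chain, 1.62-fold higher (0.70, 1 probe set). SLC2A2, the liver glucose transporter, had a difference of 0.54. Of 16 intracellular partners of galectins 14 had a value, of which 5 lay above 0 and 9 below (median -0.06). Of the 14, 0 reached 1.5-fold, against 5.01% of all genes. The autophagy gene ATG16L1 had 0.39 ± 0.22 (SD over 2 probe sets), PRKAA2 and PRKAA1, the catalytic subunits of AMPK, 0.20 ± 0.20 and -0.15 ± 0.14 (SD over 5 probe sets each), and GEMIN4, a component of the SMN complex, -0.19 and -0.18 on its 2 probe sets.

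Enzymes that build or cap the sugar ligands of galectins showed no common direction. Of 16 genes of N-glycan branching and galactose addition 8 lay above 0 and 8 below, with a median of -0.01. MGAT4B, which starts an N-glycan branch, was 1.91-fold higher in CD24 shRNA cells (0.93 ± 0.10, SD over 2 probe sets), just short of 2-fold. MGAT2, which starts another branch, had 0.33 ± 0.22 (SD over 3 probe sets). The galactosyltransferases B4GALT6 and B4GALT5 had differences of 0.52 ± 0.73 (SD over 4 probe sets) and 0.45 ± 0.09 (SD over 2 probe sets). In the core O-glycan list of 7 genes, 3 lay above 0 and 4 below (median -0.06). GALNT1 had a difference of 0.24 ± 0.39 (SD over 5 probe sets). GCNT2, which was listed with them but branches other sugar chains, had 0.19 ± 0.27 (SD over 2 probe sets). C1GALT1C1, the chaperone of the core galactosyltransferase, had -0.15 ± 0.12 and GCNT1 -0.12 ± 0.17 (SD over 2 probe sets each). GCNT2 and GCNT1 each had a probe set at 0.

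In a list of 9 sialyltransferases and fucosyltransferases, called capping enzymes here, 3 lay above 0 and 6 below, with a median of -0.04. FUT8 was the 1 of the 9 past 2-fold, at 2.06-fold higher in CD24 shRNA cells (1.04 ± 0.40, SD over 2 probe sets). It adds the core fucose of N-glycans and so does not cap their ends. Over all genes 1.12% were past 2-fold in either direction. No other gene of the 9 reached 1.5-fold, against 5.01% of all genes. Of the 5 sialyltransferases 4 lay below 0, against 9402 of all 19775 genes. ST3GAL1 had a difference of -0.49 ± 0.12 (SD over 3 probe sets) and ST3GAL6 of -0.45 ± 0.36 (SD over 4 probe sets). ST6GAL1, whose sialic acid blocks binding by many galectins, had -0.23 ± 0.40 (SD over 3 probe sets). The ST6GAL1 mean rested on a single probe set at -0.70, with the others at 0. For ST3GAL1 all 3 probe sets were below 0 and for ST3GAL6 all 4. ST3GAL3 lay at 0.07 ± 0.18 (SD over 7 probe sets) and ST3GAL4 at -0.04 ± 0.31 (SD over 2 probe sets). The sign of ST3GAL4 rests on the scaling, since the hybridisation controls add 0.078. Scaled on the hybridisation controls, the medians of the intracellular partners, the 3 enzyme lists and the trophoblast genes lay just above 0, between 0.017 and 0.069.

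Placental genes were set beside LGALS13 and LGALS14. Of 10 trophoblast genes 2 lay above 0, 7 below and 1 at 0, with a median of -0.06. Of the 10, 0 reached 1.5-fold, against 5.01% of all genes. PLAC1 had a difference of -0.35, INSL4 of -0.18, the endogenous retroviral envelope gene ERVFRD-1 of -0.17 and PSG3 of 0.14, on 1 probe set each. The dimmer array lay below 4 for 9 of the 20 trophoblast probe sets.

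The cell type could be set against its markers only through these bounds on the level, which few probe sets have. Over all genes 0.375% of probe sets had a mean placed at 8 or more and 25.4% lay below 4 in the dimmer array. Of 19 probe sets of hepatocyte and hepatoma markers, 3 had a mean over the arrays of 8 or more and 1 lay below 4 in the dimmer array. No probe set of the macrophage, lymphocyte, endothelial, stellate or biliary markers had a mean placed at 8 or more, and 2 of 10, 3 of 8, 4 of 11, 13 of 26 and 3 of 9 lay below 4. Those below 4 made 20%, 37.5%, 36.4%, 50% and 33.3% of these lists, in the same order. The samples were cultures of the established line Huh7, and these bounds do not test for other cell types. The median difference was -0.09 for 7 hepatocyte markers (2 above 0), with TF at -0.45 ± 0.30, TTR at 0.40, SERPINA1 at -0.29 ± 0.34 and ALB at -0.11 ± 0.42 (SD over 4 probe sets each, 1 probe set for TTR). It was -0.04 for 5 macrophage markers (2 above 0), with CD14 at -0.37, MARCO at 0.26, CSF1R at -0.18 and AIF1 at 0.18 ± 0.12 (SD over 4 probe sets). It was 0.10 for 5 lymphocyte markers (4 above 0), with CD2 at 0.31, NKG7 at 0.20, CD3D at -0.19 and MS4A1 at 0.10 ± 0.21 (SD over 4 probe sets).

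The median was -0.05 for 5 endothelial markers (1 above 0), with CDH5 at -0.24, CLDN5 at -0.16, TEK at 0.07 ± 0.60 and VWF at -0.05 ± 0.07 (SD over 2 probe sets each). It was 0.12 for 4 biliary markers (3 above 0), with SOX9 at -0.79 ± 0.15 and KRT19 at 0.63 ± 0.34 (SD over 2 probe sets each), KRT7 at 0.19 ± 0.27 (SD over 4 probe sets) and EPCAM at 0.05. Stellate and fibroblast markers had the highest median, 0.28 over 7 genes with 6 above 0, led by the collagen gene COL3A1 at 2.35 ± 1.77 (SD over 5 probe sets) and LUM, lumican, at 1.12 ± 1.41 (SD over 2 probe sets), with ACTA2 at 0.40 ± 0.52 and COL1A2 at 0.28 ± 0.20 (SD over 3 probe sets each). The part of these markers in the galectin values was not tested.

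**Figure D5:**
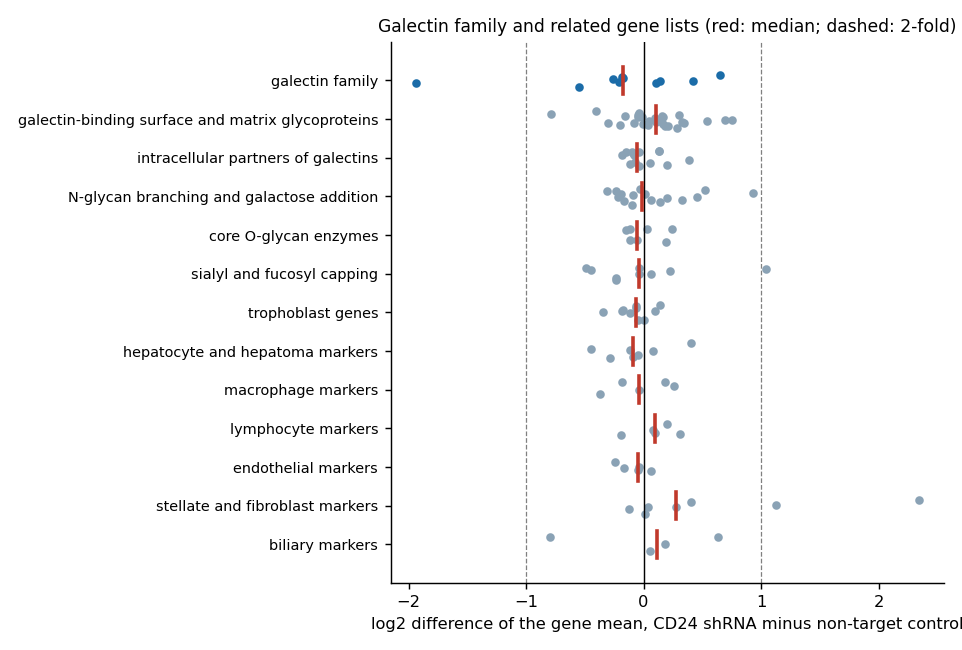
Log2 difference (CD24 shRNA minus non-target control, x axis) of the galectin family (top, dark blue) and of the gene lists named in the text other than the further galectins; each point is a gene and the red bar the median of its list. The galectin median lies at -0.18, the stellate and fibroblast median at 0.28, and the other medians between -0.09 and 0.12.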

How the data were processed

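Expression was measured in 2 samples, 1 per group, on 1 array each. Per the submitters' processing notes, RMA was used to make the deposited log2 values (background correction, quantile normalisation and summary of the probes of each probe set); its software and version were not given in the sources used here. For each probe set these sum to 0 within 1e-06, and each column has a median of 0, so the level of a probe set is known only through the bounds below. Of 54675 probe sets, 41097 named 1 gene in GEO's platform annotation, 1801 several and 11777 none. Leaving out the 62 control probe sets, 6 of which named 1 gene, left 41091 with 1 gene. RefSeq's gene table (GRCh38.p14) held the Entrez ID of 41037, and 0 symbols changed.

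From these, the log2 difference (CD24 shRNA minus NTC) was computed per probe set and averaged per gene (Python 3.11.15, pandas 2.3.3, numpy 2.4.6), with 2-fold as the threshold. The values are single-precision numbers, whose binary steps bound the level of some probe sets. A step too fine for a value of 4 or 8 puts the dimmer array below it, and the rounding error of the sum puts the mean over the arrays at 4 or 8 or more. This placed 8 of 113 ribosomal protein probe sets below 4 and 39 at 8 or more, against 62 and 0 of 107 olfactory receptor probe sets. The calculations were tested on simulated data. Upstream sequences (8 of 10 members matched) came from RefSeq and were aligned with Biopython 1.88.

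Named were CD24, all members, the 4 largest differences of each of 13 lists, and the nearest 5 genes on each side of LGALS14 and LGALS1. LGALS8-AS1, ST3GAL3, ST3GAL4 and the probe set of LGALS7 and LGALS7B were added after their values were seen. Members and lists were chosen with earlier results of these data known. The alternatives concern probe set choice, scaling and threshold.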

Additional observations from a re-analysis of the deposited data

How the results depend on the processing

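No paired analysis was possible because each group holds 1 array, and no array could be left out. Over 57 values of the members under other settings, all 57 kept their sign. Nearly all of this was fixed beforehand, because 8 of the 10 members have 1 probe set. For these 8, the choice of probe set returns the same value or none, and the median subtracted is 0. Only scaling on the hybridisation controls, which adds 0.078, could change their values, and each was too large for this shift to turn its sign. Both LGALS3 probe sets lay above 0, so among the members only LGALS8 had probe sets of both signs. LGALS8, LGALS9 and LGALS12 had no value without probe sets ending in _s_at or _x_at, nor LGALS12 without those placed below 4. With the probe set of largest difference per gene, LGALS8 was at 1.75, 1 member was 2-fold higher, and 303 genes were 2-fold higher and 209 lower over the array. At 1.5-fold 1 member was higher (LGALS8) and 1 lower (LGALS14), against 521 and 470 genes over the array. The LGALS8 mean without its highest probe set, a setting added after seeing the data, was 0.43. Of 78 list medians, 64 moved by under 0.1. Neither scaling setting could move a median that far, since they shift every value by 0 and by 0.078. Scaling on the hybridisation controls turned 7 of the 13 list medians from just below 0 to between 0.017 and 0.069 (intracellular partners, branching, core O-glycan and capping enzymes, trophoblast genes, macrophage and endothelial markers), and their counts above and below 0 rest on the same shift. With the largest probe set they were 0.34 for galectin-binding glycoproteins, -0.18 for intracellular partners, -0.23 for capping enzymes, -0.20 for hepatocyte, -0.17 for macrophage, 0.43 for stellate and 0.25 for biliary markers. Without _s_at and _x_at probe sets they were -0.19 for hepatocyte, 0.086 for stellate and 0.51 for biliary markers. Without probe sets below 4 they were -0.10 for the further galectins (LGALSL alone), -0.16 for endothelial and 0.15 for stellate markers, and with the median over probe sets 0.17 for stellate markers. These settings change which probe sets or genes are counted. The number of arrays limits every value.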
